A study of Caenorhabditis elegans with 2 samples.

Results

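The genes described here are the 261 microRNA genes of *Caenorhabditis elegans*, taken as every gene with the miRNA biotype among 46890 annotated genes (Ensembl release 115 on genome build ce11). They were set against the binding profile of LIN-39, a Hox homeodomain protein of the mid-body, measured by chromatin immunoprecipitation followed by sequencing (ChIP-seq). The animals were whole L4 larvae of pooled sex from strain OP18, with the *unc-119(ed3)* III mutation and the integrated transgene *wgIs18*, from which LIN-39 is made as a fusion with enhanced green fluorescent protein (eGFP). The labels gave 2 biological replicates, both with library fragments of 150 to 350 bp. Both replicates carried the transgene and the *unc-119* mutation, and there was 1 group, so no condition, stage or genotype was compared. The cells that express the transgene are not given in the labels, and the signal is an average over all cells of the animal.

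Regions of the pooled list, of the authors' thresholded list and of the list of each replicate were assigned to a microRNA gene when their summit lay within 1000 bp of it, and a region near several clustered genes was counted once. In the pooled list 153 of 30000 regions met this rule, and 4 of the 163 thresholded peaks did. The pooled list holds peaks and background by its deposited name, so a pooled region is a candidate and not a binding site. The list of replicate 1 held 169 such regions and that of replicate 2 held 153, each of 30000.

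A microRNA is cut as a hairpin from a longer transcript by the nuclease Drosha with its partner Pasha, cut again by Dicer, and loaded into an Argonaute protein, which it guides to messenger RNAs. Pairing rests mainly on the seed, bases 2 to 8 of the mature RNA, so genes that share a seed are grouped as a family. Several worm families are best known for timing larval development, among them *lin-4* and *let-7*, and the *mir-35* and *mir-51* families for their roles in the embryo. LIN-39 is known for its part in vulval and mid-body cell fates.

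RefSeq gives mature forms for 260 of the 261 genes, 458 in all, and 16 seeds were shared by 3 or more genes. One of these seeds, shared by the 6 genes of the *mir-51* family, recurred at 2 of the 4 thresholded peaks. Their mature RNAs are shown because 4 of these 6 genes lay by a thresholded peak, with the seed in capitals, 5′ to 3′, credited to RefSeq on the assembly WBcel235, which is ce11.
mir-51: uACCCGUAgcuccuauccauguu
mir-52: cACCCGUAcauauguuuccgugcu
mir-53: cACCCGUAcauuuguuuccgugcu
mir-54: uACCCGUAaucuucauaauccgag
mir-55: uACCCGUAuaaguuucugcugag
mir-56: uACCCGUAauguuuccgcugag
mir-5549, 5′ arm: cUUGUGAAauuaacgugagu
mir-5549, 3′ arm: uCAUGUUGguuuuuuguuggu
let-7: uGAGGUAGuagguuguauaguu
The *mir-52* and *mir-53* RNAs were identical at 23 of 24 positions. Other pairs within the family, aligned from the 5′ end, were identical at 9 to 14 positions. Neither arm of *mir-5549*, the microRNA of another thresholded peak, had a seed shared with the *mir-51* family, and *let-7* is given as the reference heterochronic microRNA.

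The DNA under 3 of the thresholded peaks, and under a region at *let-7*, is shown so that the matches to 6 sequence patterns can be read, in capitals, within 100 bp of each summit. The patterns, searched on both strands, were the repeat GAGAGA, the homeodomain core in 4 forms (either the form TAATGA, the form TAATGG, the form TAATTA or the form TAATTG), the Hox and PBC composite site, the zinc finger site TGATAA, the homeodomain site TGACAG of the TALE class and the E-box CAGCTG. Matches of different patterns could overlap, as the core and TGATAA do at *mir-52*. Each window is 201 bases of the plus strand of ce11.
mir-54, mir-55 and mir-56, chrX:13145232-13145432: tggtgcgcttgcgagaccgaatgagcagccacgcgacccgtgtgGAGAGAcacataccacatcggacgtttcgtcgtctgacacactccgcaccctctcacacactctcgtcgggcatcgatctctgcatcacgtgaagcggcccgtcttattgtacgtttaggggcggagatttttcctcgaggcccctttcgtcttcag
mir-52, chrIV:14034180-14034380: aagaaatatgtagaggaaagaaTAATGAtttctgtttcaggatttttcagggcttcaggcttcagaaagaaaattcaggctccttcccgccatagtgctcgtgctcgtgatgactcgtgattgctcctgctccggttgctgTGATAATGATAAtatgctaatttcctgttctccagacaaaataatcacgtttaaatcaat
mir-5549, chrIII:6972019-6972219: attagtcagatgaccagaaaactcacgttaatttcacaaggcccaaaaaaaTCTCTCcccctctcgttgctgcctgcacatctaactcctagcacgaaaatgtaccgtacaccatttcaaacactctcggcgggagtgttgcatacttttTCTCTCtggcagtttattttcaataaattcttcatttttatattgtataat
let-7, chrX:14744736-14744936: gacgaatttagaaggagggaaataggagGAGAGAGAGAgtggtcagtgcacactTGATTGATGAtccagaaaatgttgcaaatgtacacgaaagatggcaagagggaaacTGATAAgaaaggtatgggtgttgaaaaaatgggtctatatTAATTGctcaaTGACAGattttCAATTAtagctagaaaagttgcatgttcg
The window by *mir-54* held 1 match, to GAGAGA, and had a GC content of 57.7%. That by *mir-52* held 4 matches, 2 to the homeodomain core and 2 to TGATAA, and that by *mir-5549* held 2 matches to GAGAGA on the minus strand. The window of the thresholded peak by *mir-354* is not printed. It held the homeodomain core and no other of the 6 patterns. The *let-7* window held 8 matches, of which 3 to GAGAGA overlap one another in a single run, and is described with its family. A match says only that these letters are present.

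The *mir-51* family, all of whose genes have the seed ACCCGUA, held 2 of the 4 thresholded peaks. The signal is given as relative signal, the deposited signal of a region divided by the median signal of its own list, because sizes are not comparable between lists. The thresholded peak by *mir-54*, *mir-55* and *mir-56* (chrX:13145160-13145503) ranked 39 in the pooled list, with a relative signal of 3.36. It ranked 73 in replicate 1 and 60 in replicate 2, with relative signals of 2.68 and 3.12 (mean 2.90 ± 0.312, SD, n = 2). The replicates thus placed it close together near the top. Its summit lay 238 bp upstream of *mir-54*, the first gene of the cluster, in the protein-coding gene *F09A5.3* but outside its annotated exons, and 3731 bp from the nearest protein-coding 5′ end. The 3 microRNAs lie on the strand opposite to *F09A5.3*, and a microRNA gene annotated on the other strand over *mir-55*, *F09A5.15*, shares the region, so that the genes cannot be told apart by this assay. A region that overlaps the peak, with its summit 440 bp upstream of *mir-54*, ranked 2844 with a relative signal of 1.43. Overlapping regions of a list were counted separately throughout.

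The thresholded peak by *mir-52* (chrIV:14034108-14034451) ranked 81 in the pooled list, with a relative signal of 2.85. Its rank was 39 in replicate 1 and 261 in replicate 2, and the relative signals were 3.00 and 2.19 (mean 2.59 ± 0.573, SD, n = 2). Both replicates placed it among their 1000 highest regions. The summit lay 173 bp downstream of *mir-52*, which is intergenic, and the nearest protein-coding 5′ end, of *Y37A1B.7*, was 9500 bp away. A region 748 bp upstream of the gene ranked 2601 in the pooled list and 370 in replicate 2 (relative signal 2.06), and was not matched in replicate 1.

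The other 2 thresholded peaks lay by microRNA genes of other seeds, and each was also close to a protein-coding start. The peak by *mir-354*, on chromosome I (14469174 to 14469517), ranked 38, with a relative signal of 3.37, the highest of the 153 regions. It ranked 70 in replicate 1 and 57 in replicate 2, with relative signals of 2.70 and 3.16 (mean 2.93 ± 0.327, SD, n = 2). *mir-354* lies within the ribosomal protein gene *rps-20* on the same strand, and the summit was 855 bp upstream of *mir-354* but 154 bp upstream of *ekl-4* on the other side. The summit was also upstream of *rps-20* itself, between the 5′ ends of *rps-20* and *ekl-4*, which lie on opposite strands. The peak by *mir-5549* (chrIII:6971947-6972290) ranked 70, with a relative signal of 2.96. Its replicates were further apart, at rank 1710 in replicate 1 (relative signal 1.61) and rank 41 in replicate 2 (3.47, mean 2.54 ± 1.32, SD, n = 2). The summit was 34 bp upstream of *mir-5549* and 134 bp upstream of *rfc-4*, a replication factor C subunit gene, with the translation elongation factor gene *eef-1A.1* on the other side. To which of these genes a peak belongs cannot be told apart from position.

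**Figure D1:**
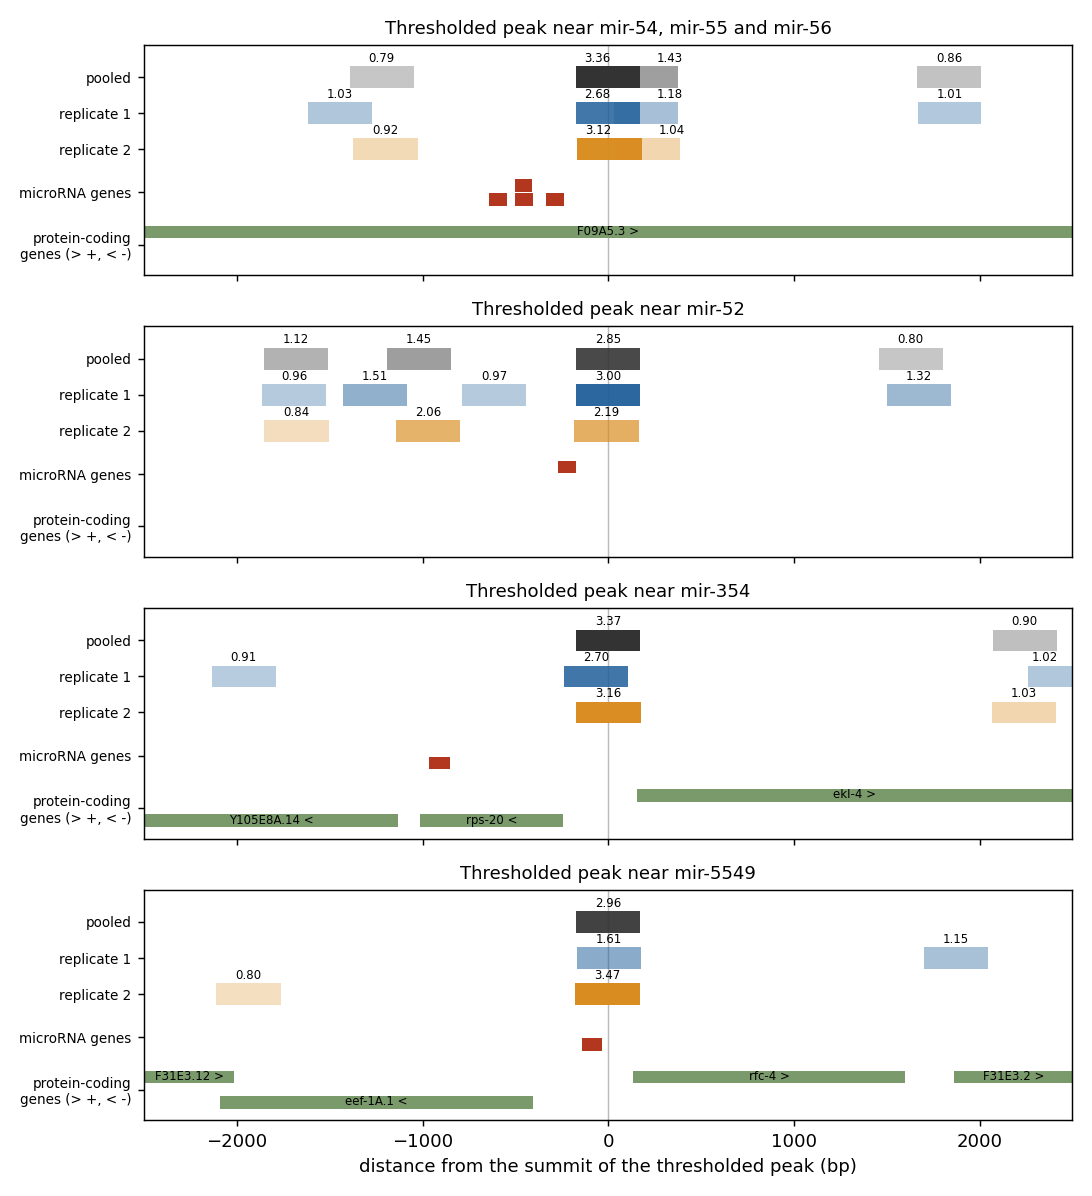
Regions around the summits of the 4 thresholded peaks near microRNA genes, with distance from the summit in bp on the x axis. Boxes are regions of the pooled list and of each replicate, numbered by relative signal (darker is higher), above microRNA genes (red) and protein-coding genes (green, with strand). The *mir-54* peak reached 2.68 and 3.12 in the replicates and the *mir-5549* peak 1.61 and 3.47.

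Just below the threshold, whose lowest peak had a relative signal of 2.34, the first region by a microRNA gene was that by *mir-90*. It ranked 237 (relative signal 2.13), at rank 4012 in replicate 1 and 134 in replicate 2, and lay 486 bp upstream of *mir-90*, within *K01F9.2*. The other 8 regions by a microRNA gene among the 1000 highest pooled regions lay by *mir-1818* (rank 504), *mir-4927* (530), *mir-4810.2* with *mir-2220* and *mir-4809* (568), *mir-249* with *mir-785* (593), *mir-53* (599), *mir-5552* (796), *mir-1824* (868) and *mir-239.2* (911). Their ranks in the replicates often differed. The *mir-53* region ranked 93 in replicate 1 (relative signal 2.51) and 27909 in replicate 2 (0.79), and the *mir-1818* region 9089 in replicate 1 (1.15) and 329 in replicate 2 (2.10). The *mir-4810.2* region ranked 273 in replicate 1 and was not matched in replicate 2. The *mir-249* region was matched in neither, but a pooled region that overlaps it, at rank 4240, was matched in both. That overlapping region ranked 9860 in replicate 1 (1.13) and 733 in replicate 2 (1.87), so the replicates did have regions at this place.

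**Figure D2:**
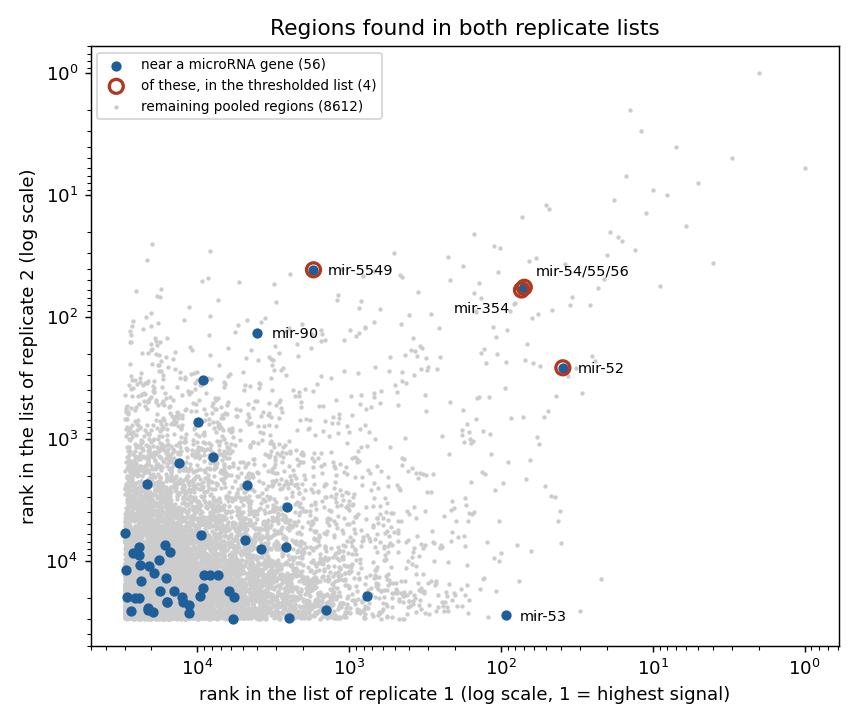
Rank in the list of replicate 1 (x axis) against rank in the list of replicate 2 (y axis), both on log scales with the highest signal at rank 1, for regions matched in both replicate lists. The 56 regions near a microRNA gene are blue and the 8612 remaining regions grey. The thresholded peaks by *mir-354*, *mir-54* and *mir-52* sit among the 1000 highest of both replicates, and the *mir-5549* peak is at rank 1710 in replicate 1.

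Set beside the remaining 29847 pooled regions, regions near microRNA genes had larger shares at the top of the lists. Of the 153 regions, 4 were thresholded, or 2.61% (95% Wilson interval 1.02 to 6.53%), against 0.533% of the remaining regions and 0.543% of the whole list. Among the 1000 highest pooled regions were 13, or 8.50% (5.03 to 14.0%), against 3.31% of the remaining regions and 3.33% of the whole list. Among the 1000 highest of both replicate lists were 3, or 1.96% (0.669 to 5.61%), against 0.489% of the remaining regions and 0.497% of the whole list. Regions of one list share libraries and reads, so these intervals describe counting error alone, and no test was made. Without the 7 regions of the *mir-51* family, a choice made after seeing the data, the shares were 1.37% thresholded (0.376 to 4.86%), 6.85% among the 1000 highest (3.76 to 12.1%) and 0.685% among the 1000 highest of both replicates. The family held 2 of the 4 thresholded peaks and 2 of the 3 regions at the top of both replicates.

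The thresholded list was derived from both replicates, so in each replicate's own list as many of the highest regions were counted in its place. In replicate 1, 4 of its 169 regions, or 2.37% (0.924 to 5.93%), were among the 163 highest, and 9, or 5.33% (2.83 to 9.81%), among the 1000 highest. In replicate 2 these were 4 of 153, or 2.61% (1.02 to 6.53%), and 12, or 7.84% (4.54 to 13.2%). The 4 regions were not all those of the thresholded list. In replicate 1 the *mir-53* region (rank 93) stood in place of that of *mir-5549* (1710). In replicate 2 the *mir-90* region (134) stood in place of that of *mir-52* (261). The others were the thresholded peaks in each list. The remaining regions had 0.533% in both lists for the first count, and 3.32% in replicate 1 and 3.31% in replicate 2 for the second.

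The typical region near a microRNA gene, by contrast, was not placed high by either replicate. The median pooled signal percentile was 60.9 near microRNA genes and 50.0 for the remaining regions, or median ranks of 11725 and 15013 and median relative signals of 1.07 and 1.00. In the replicates' own lists the median percentile near microRNA genes was 46.1 in replicate 1 and 53.6 in replicate 2, on either side of the 50.0 of the remaining regions. The pooled difference in the median thus did not hold in replicate 1.

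Of the 153 regions, 56 were found in both replicate lists, or 36.6% (29.4 to 44.5%), against 28.9% of the remaining regions and 28.9% of the whole list. A further 40 were matched in replicate 1 only, 49 in replicate 2 only, and 8 in neither. Over the 56 regions in both, Spearman's rho between the replicate ranks was 0.209, against 0.104 over 8612 remaining regions. These values are across regions of the same libraries and are descriptions.

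The windows of 1000 bp around microRNA genes covered 469 kb, or 0.468% of the genome, and held 0.510% of the pooled regions. That is 326 pooled regions per Mb, against 299 elsewhere. Of the 153 regions, 65 lay upstream of their nearest microRNA gene, 8 within it and 80 downstream. The upstream regions held 3 of the thresholded peaks and 6 of the 1000 highest, with a median percentile of 64.3, and the downstream regions 1 and 7, with a median percentile of 50.3. By distance, 3 of the 4 thresholded peaks had summits within 250 bp of the gene, where 35 of the regions lay. Beyond 1000 bp and up to 3000 bp, 3 more thresholded peaks followed, by *mir-2221* (1245 bp, rank 50), *mir-2216* (1760 bp, rank 53) and *mir-62* (2031 bp, rank 15), names given after their values were seen. At the limit of the rule, the last regions inside, at 957 to 985 bp, ranked between 7965 and 29667, and the first outside, at 1025 to 1040 bp, between 15886 and 25066.

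**Figure D3:**
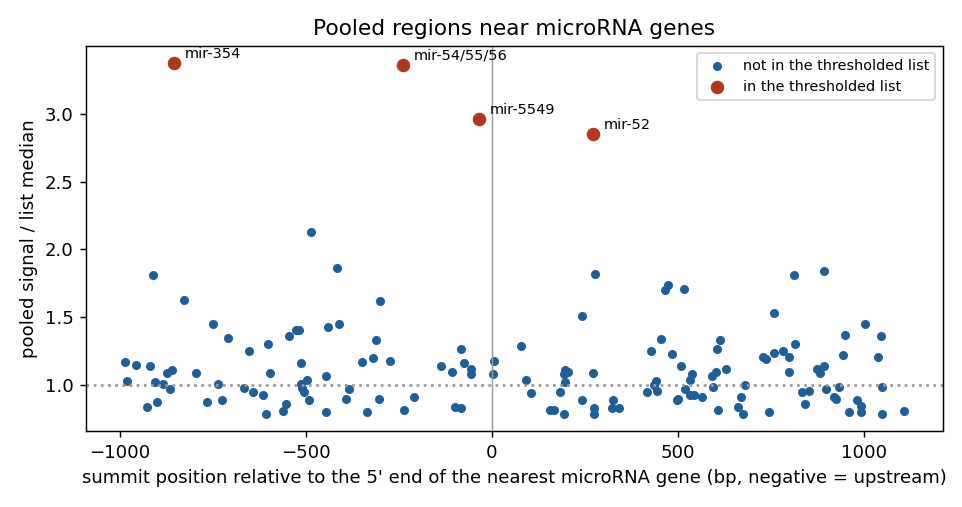
Pooled relative signal (y axis) against the position of the summit relative to the 5′ end of the nearest microRNA gene (x axis, bp, negative is upstream) for 151 of the 153 regions, with thresholded peaks in red. The 2 regions not drawn lie farther from the 5′ end. The thresholded peaks lie between 855 bp upstream and 173 bp past the 3′ end of *mir-52*, and the other regions are below a relative signal of 2.34 at all distances.

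The regions near microRNA genes were spread over the genome in other shares than the remaining ones. The X chromosome held 34% of them (27.0 to 41.8%), against 21.1% of the remaining regions, and chromosome V 10.5% against 20.7%. By the 1000 bp rule such shares depend on where the genes lie. Of the 261 microRNA genes, 74 are on X and 28 on V, and 155 are intergenic, so no preference of the regions can be read here. Protein-coding genes covered 43.8% of their summits, against 60.1%, and protein-coding promoters, taken as the 1000 bp before a 5′ end and the 200 bp after it, 17.0% against 22.6%. The share among the 1000 highest pooled regions was above that of the remaining regions both on X (7.69% against 3.62%) and on the autosomes (8.91% against 3.22%). It was 11.5% against 4.14% in promoters and 7.87% against 3.06% outside them, splits that were also chosen after seeing the data. A tRNA gene lay within 200 bp of 2 of the 153 summits, or 1.31%, against 0.352%, and neither was thresholded.

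The 95% intervals for 5 of the 6 sequence patterns covered the share of the remaining regions. GAGAGA was within 100 bp of 12.4% of summits near microRNA genes and 10.5% of the remaining ones, the homeodomain core of 39.9% and 40.5%, TGATAA of 22.2% and 19.3%, TGACAG of 4.58% and 6.92%, and CAGCTG of 3.92% and 3.57%. The composite site, a sequence that a Hox protein and a PBC partner can bind together, was in 14 windows near microRNA genes, or 9.15% (5.53 to 14.8%), against 5.04% of the remaining ones. The pooled ranks of these 14 regions ran between 1179 and 26073. None was thresholded or among the 1000 highest, where the shares over the whole list are 0.543% and 3.33%, so nothing can be read from that count in 14 regions. Median GC content of the windows was 34.3% near microRNA genes and 33.3% for the remaining regions.

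The first of those 14 regions lay by *mir-34*, a microRNA conserved to mammals, 828 bp upstream of the gene. It is shown because its composite site lies by a region that 1 replicate placed near the top.
mir-34, chrX:2970576-2970776: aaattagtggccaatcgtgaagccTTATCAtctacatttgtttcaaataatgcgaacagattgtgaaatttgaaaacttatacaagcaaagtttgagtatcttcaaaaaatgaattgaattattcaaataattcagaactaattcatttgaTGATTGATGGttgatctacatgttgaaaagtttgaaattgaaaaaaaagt
It ranked 1179 in the pooled list, with a relative signal of 1.63, and 322 in replicate 1 (relative signal 2.04). It was not matched in replicate 2. The 2 stretches in capitals are TGATAA on the minus strand and the composite site on the plus strand.

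Among the microRNA families, the *mir-51* family stood highest. All of its 6 genes had a pooled region, against 50.6% of all microRNA genes, and 4 of them a thresholded peak, against 2.68%. Because *mir-54*, *mir-55* and *mir-56* share a peak, the 4 genes stand for 2 peaks, and the 2.68% counts these genes too. Its 7 regions had a median percentile of 91.3, the value of the *mir-52* region at rank 2601, which was not matched in replicate 1. The family's genes lie at 3 places, and their values differed. By *mir-51* itself the region, shared with *mir-53*, ranked 21771 in the pooled list, with a relative signal of 0.89, though 261 in replicate 1 (2.09), and it was not matched in replicate 2. The family's lowest region, nearest to *mir-56*, ranked 29968 with a relative signal of 0.79.

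The *let-7* family, best known for timing larval development, had pooled regions by 6 of its 7 genes, 9 regions in all, beside the 50.6% of all microRNA genes. None was among the 1000 highest, against 3.33% of the whole list, and their median percentile was 65.6. The strongest, by *mir-793*, ranked 2514 with a relative signal of 1.45. *let-7* itself is annotated over 1732 bp, the longest of the 261 genes, against a median of 95 bp, so a wider window was searched for it. By it 3 regions were found, and the strongest, within the annotated gene, ranked 6332 with a relative signal of 1.23. Its summit, at position 14744836, lay upstream of the mature *let-7* RNA, at 14744234 to 14744255 on the minus strand. The region ranked 3090 in replicate 2 (1.45) and was not matched in replicate 1. Its window is the one printed above with 8 matches, to the composite site, the homeodomain core, GAGAGA, the zinc finger site and the TALE site. The family members *mir-48*, *mir-84* and *mir-241* ranked 9840, 10328 and 10641.

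Regions by the other families had ordinary ranks. *lin-4*, the founding microRNA, which represses *lin-14*, had 1 region at rank 10768 (relative signal 1.09), and the strongest region by it reached 1.06 in the list of replicate 1 and 1.04 in that of replicate 2. Its relative *mir-237* had none in the pooled list. The 7 genes *mir-35* to *mir-41*, which are transcribed as 1 cluster, shared 1 region at rank 11397 (1.08). The strongest region by the cluster reached 0.85 in the list of replicate 1 and 1.12 in that of replicate 2, and *mir-42* had none. The bantam-like family, *mir-58.1* and its relatives, had regions by 4 of 5 genes, the highest at *mir-80* (rank 4960). The *mir-63* family had none by its 5 genes, the *mir-44* family by 1 of 4, and the *mir-2* family by 2 of 4, with *mir-2* at rank 2998. Over all microRNA genes the share with a pooled region was 50.6%, and families of 4 or 5 genes are too small to be read against it.

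Of the single genes with known cell types, *mir-57*, which acts in posterior cell fates, ranked 2956 (relative signal 1.41). *mir-124*, of sensory neurons, ranked 12958 (1.04), *lsy-6*, which acts in a taste neuron, 14597 (1.01) and *mir-71*, known for its role in lifespan, 14648 (1.01). *mir-1*, the muscle microRNA, had no pooled region. The strongest region by *mir-57* reached 1.51 in the list of replicate 1 and 0.77 in that of replicate 2, so the replicates did not place it alike.

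**Figure D4:**
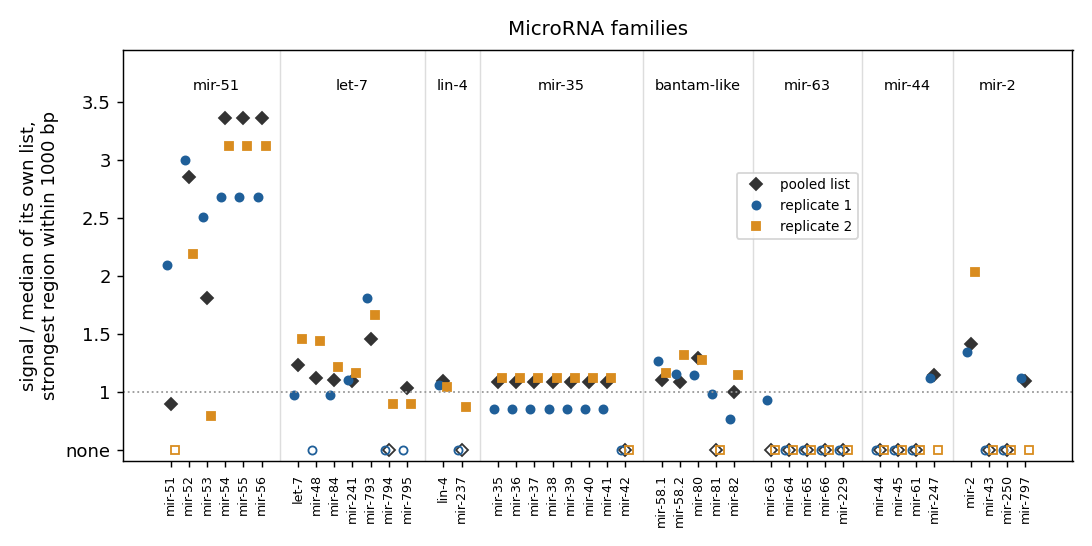
Relative signal (y axis) of the strongest region within 1000 bp of each gene of 8 microRNA families, in the pooled list (diamonds), replicate 1 (circles) and replicate 2 (squares). Open symbols at the bottom mark genes with no region in that list, and genes of a cluster share a region. *mir-52*, *mir-54*, *mir-55* and *mir-56* are above 2 in all 3 lists, whereas *mir-51* is above 2 in replicate 1 alone.

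Counted by gene, 132 of the 261 microRNA genes had a pooled region within 1000 bp, or 50.6% (44.5 to 56.6%), and 85 had one in the pooled list and in both replicate lists. In none of these lists did 78 genes have one. A region was shared by several genes in 18 cases, up to the 7 genes of the *mir-35* cluster. Of intergenic microRNA genes 48.4% had a pooled region, of those within a protein-coding gene on its strand 51.4%, and on the opposite strand 59.4% (42.3 to 74.5%, 32 genes). By chromosome the share was highest on X, at 62.2% (50.8 to 72.4%), and lowest on IV, at 42% (29.4 to 55.8%).

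The values of microRNA genes lay within the range of those of snRNA, snoRNA and tRNA genes. Thresholded peaks lay within 1000 bp of 2.68% of microRNA genes (1.31 to 5.43%), against 3.10% of snRNA genes (1.21 to 7.70%), 2.02% of snoRNA genes (0.983 to 4.12%), 0.654% of tRNA genes (0.254 to 1.67%) and 0.901% of protein-coding genes. Shares of ncRNA genes (0.708%, 0.545 to 0.921%) and piRNA genes (0.15%, 0.0998 to 0.225%) lay below the microRNA interval. Clustered genes share a peak, and the 7 microRNA genes stand for 4 peaks. By region, 2.61% of those near microRNA genes were thresholded, against 2.33% near snoRNA, 5.8% near snRNA and 0.872% near tRNA genes. Their median pooled percentiles were 60.9, 62.0, 51.6 and 52.4, in that order. Any pooled region lay by 50.6% of microRNA genes, against 45.7% of snRNA genes, 58.7% of snoRNA genes, 52.0% of tRNA genes and 73.1% of protein-coding genes. Protein-coding genes are longer, with a median of 2027 bp against 95 bp for microRNA genes, and so span more of the genome.

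**Figure D5:**
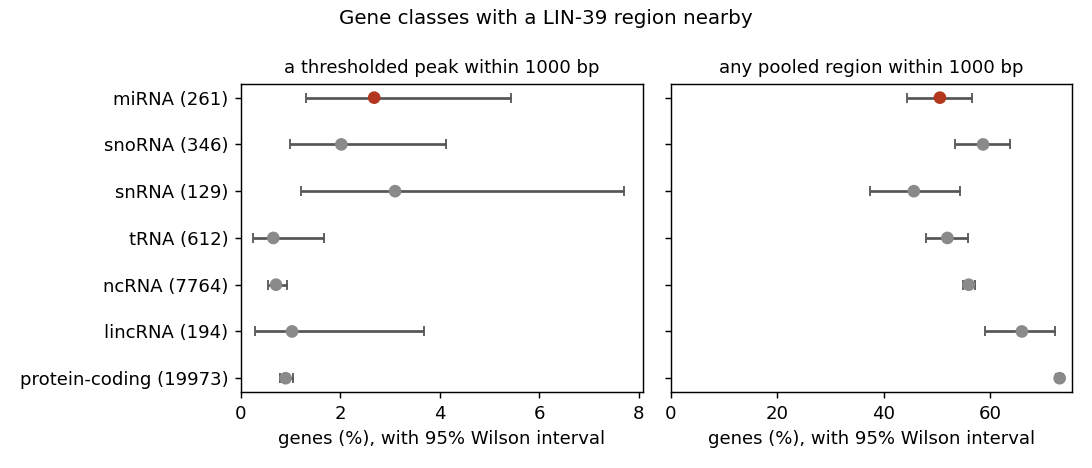
Share of the genes of each class with a thresholded peak (left) or any pooled region (right) within 1000 bp, in percent on the x axis with 95% Wilson intervals, and the number of genes in brackets. MicroRNA genes (red) are at 2.68% and 50.6%. Their interval in the left panel overlaps those of snoRNA, snRNA, tRNA and lincRNA genes and lies above those of ncRNA and protein-coding genes.

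The protein-coding genes of the pathway were looked up by the same rule. Of 19 genes for biogenesis and silencing, 16 had a pooled region (84.2%), against 73.1% of all protein-coding genes, and 1 a thresholded peak, against 0.901%. That gene was *ain-1*, which encodes the GW182-type partner of the microRNA Argonautes. Its peak ranked 117, with a relative signal of 2.51, at rank 979 in replicate 1 and 127 in replicate 2. The Argonaute gene *alg-1* had its best region at rank 2743, *pash-1* at 3242 and the Dicer gene *dcr-1* at 4184, while *drsh-1*, *alg-2* and *rde-4* had none. The biogenesis genes have a median length of 5428 bp, so longer windows were searched for them than for the typical protein-coding gene.

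Of 10 known targets of worm microRNAs, all had a pooled region, against 73.1% of all protein-coding genes, and none a thresholded peak, against 0.901%. With 10 genes, all or none cannot be told apart from these shares. A region among the 1000 highest lay by 4 of the targets, against 4.84% of all protein-coding genes. These were *lin-14*, the target of *lin-4* (rank 179, relative signal 2.31), *let-60*, the Ras gene and a *let-7* family target (rank 301, 2.04), *lin-41*, the target of *let-7* (rank 516, 1.85), and *vav-1*, a target of *mir-61* (rank 974, 1.68). In replicate 1 these regions ranked 2202, 2236, 19415 and 3225, and in replicate 2 they ranked 166, 1235, 1417 and 2195, in that order of genes. Of these ranks, that of *lin-14* in replicate 2 was the single one within the 1000 highest. The targets are long, with a median of 7156 bp against 2027 bp for all protein-coding genes, so longer windows were searched for them. *let-60* at 2862 bp was the shortest of these 4.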

How the data were processed

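ChIP-seq was made on whole L4 larvae in 2 biological replicates of 1 group, per the labels. Per the deposited text descriptions, the authors derived each replicate's list from that replicate's reads with a control shared by both replicates, the pooled list from both alignments, and the thresholded list from these by an irreproducible discovery rate. Which aligner, caller and threshold were used is not given in the sources used here. For each region, the signal deposited is the caller's value over the control by the format's convention, and is the authors' own. It was used only for ranks and ratios to the median of its own list. The deposited q column reached below 0 and was treated as a score (from -0.227 to 1.19 near microRNA genes) on which no result rests. No counts were given, so the depth is unknown.

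Coordinates are 1-based on ce11, and the ce10 lists were not used. Genes came from Ensembl release 115, and all 261 microRNA genes were matched to RefSeq symbols. Sequences were read from the RefSeq genome and annotation of the same assembly. Regions of 2 lists were taken as the same where summits lay within 200 bp and were each other's nearest. Mean ± SD are over the replicates' relative signals. Of 20 biogenesis symbols 19 were matched (*ntl-1* was not), and *lin-28* stands in both pathway lists. Named genes are those by thresholded peaks, those of the 12 highest regions or of regions at the top of both replicates, 8 families, 6 single genes and both pathway lists. Others were named after their values were seen. The members and lists were chosen with earlier results of these data known, and no test was made. Functions were checked on simulated data. Scripts ran on Python 3.11.15 with pandas 2.3.3, numpy 2.4.6 and scipy 1.17.1, and figures were drawn with matplotlib 3.10.9.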

Additional observations from a re-analysis of the deposited data

How the results depend on the processing

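No paired analysis was possible because the series has 1 group. Of 32 alternatives, 25 stayed within the error of the reported value (the 95% Wilson interval, or for the median percentile the SD of 5.30 between the replicates' own medians). These limits are wide for small counts, at 1.02 to 6.53% for the thresholded share, and most alternatives reuse the same regions. The count of 25 therefore does not show that a result is stable. The share of microRNA genes with a pooled region, 50.6%, became 28.7% within 500 bp, 69.7% within 2000 bp and 29.1% for summits upstream of or within the gene, as the window searched became smaller or larger. The share in both replicates, 36.6%, became 45.8% with summits matched within 500 bp, a looser rule for which the remaining regions were not counted. The thresholded share, 2.61%, became 8.50% for the 1000 highest pooled regions, a looser cut under which the remaining regions also rose, from 0.533 to 3.31%. It lay between 2.34 and 4.17% over the distance, side and overlap rules, against 0.528 to 0.535% of the remaining regions. The median percentile, 60.9, became 46.1 to 53.6 with 1 replicate's list alone, and the cause was not tested. With 1 replicate's list alone the share among its 163 highest regions, counted in place of the thresholded share, was 2.37 to 2.61%, from partly different regions, and the share of genes with a region was 49.8 to 53.6%. Leaving out the *mir-51* family, chosen after seeing the data, gave a thresholded share of 1.37%, a share at the top of both replicates of 0.685% and a median percentile of 56.5. The remaining regions had 0.533%, 0.489% and 50.0. Without read counts, the depth behind a region cannot be given.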
